A study of Mus musculus with 4 samples.

Results

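The genes described here are those of the proteasome. They were chosen as every gene symbol beginning with Psma, Psmb, Psmc, Psmd, Psme, Psmf or Psmg that reached 1 FPKM (a read level scaled for transcript length and library depth) in at least 1 sample. Of 50 such symbols, 49 met this level, out of 13609 genes that did so among 23906 listed. *Psmb11*, a subunit restricted to thymic epithelium, did not, at 0.476 FPKM in its highest sample. The lowest maxima among the genes kept were 8.96 FPKM for *Psme4* and 16.8 FPKM for *Psma8*, so no gene lay near the limit. None of the 49 genes was listed at 0 in any sample.

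RNA was sequenced from LSK-SLAM cells (Lin- Sca1+ cKit+ CD150+ CD48-), a sorted population enriched for haematopoietic stem cells, of *BRE-GFP* transgenic mice. All 4 groups carried the *BRE-GFP* transgene, in which a BMP-responsive element drives GFP, so that GFP marks cells in which BMP signalling through Smad1/5 was active when they were isolated. The groups were GFP+ cells (BMP-activated) and GFP- cells (non-BMP-activated) of the fetal liver (FL) at embryonic day 14, and the same fractions of adult bone marrow (BM). Each group was 1 library, with no replicates, and how many animals were pooled for it and how old the adults of these libraries were are not given in the sources used here. Tissue and developmental stage changed together and cannot be told apart, and an antibody to CD11b was part of the lineage stain for BM only. Values of the 4 samples are given below in the order FL GFP+, FL GFP-, BM GFP+ and BM GFP-.

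The proteasome degrades proteins that carry ubiquitin chains. Its 20S core is a barrel of alpha and beta rings, and the beta subunits encoded by *Psmb5*, *Psmb6* and *Psmb7* hold the active sites. The 19S regulator caps the barrel, with a base of ATPases that unfold the substrate and a lid that removes ubiquitin. In immune cells and after interferon signalling, *Psmb8*, *Psmb9* and *Psmb10* encode catalytic subunits that are built into new cores in place of the constitutive ones, and *Psme1* and *Psme2* encode the 11S activator. The resulting immunoproteasome favours peptides that bind MHC class I molecules.

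The BM GFP+ library stood apart from the other 3. *Procr*, a stem cell surface gene, was listed at 0 in it and at 106, 113 and 60.8 FPKM in FL GFP+, FL GFP- and BM GFP-. Other sort genes went against its label, with *Kit* at 102, 150.3, 22.2 and 76.6 FPKM and *Cd48*, a gene of the negative gate, at 51.4, 17.4, 267 and 126 FPKM, while *Ly6a*, which encodes Sca1, was highest in it (19.7, 46.3, 286 and 145.5 FPKM). The fetal genes *Lin28b*, *Hmga2*, *Igf2bp1*, *Igf2bp2* and *Igf2bp3* were higher in both FL samples than in both BM samples, as the tissue labels require, while *Hba-x* was listed at 0 throughout and *Hbb-bh1* stood above 1 FPKM only in FL GFP-. Of 5 BMP target genes, 4 were more than 2-fold higher in GFP+ than in GFP- cells of BM, where 19.7% of all genes were. In BM 0 were lower, where 22.9% were. In FL 0 were higher, where 16.6% were, and 1 was lower, where 28.0% were. The latter was *Smad7*, under 1 FPKM in both FL samples (0 and 0.489 FPKM). *Id1*, *Id2*, *Id3* and *Smad6* in FL GFP+ were at 1.93, 1.10, 0.995 and 1.17 times FL GFP-. Each comparison of tissues is therefore given separately for the GFP- cells, which do not use the BM GFP+ library. That comparison is not free of the limit. Of 7 sort genes, 2 passed 2-fold in it, *Cd48* (7.26-fold) and *Ly6a* (3.14-fold), both higher in BM GFP-. *S100a8*, a granulocyte marker, measured 9.78 FPKM in FL GFP- and 3189 FPKM in BM GFP-. In bulk RNA, more cells of a type and more RNA per cell cannot be told apart.

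Proteasome genes were among the more abundant transcripts of all 4 samples. Their median was 146, 109, 157 and 172 FPKM, while that of all genes reaching 1 FPKM was 9.33, 9.26, 9.81 and 8.89 FPKM. The median proteasome gene stood at percentile 94.5, 93.7, 93.2 and 94.7 of the expressed genes, and the set made up 1.33%, 1.30%, 0.996% and 1.28% of the summed FPKM. The share was lowest in BM GFP+, the sample with the largest FPKM total. Levels were even among the 31 constitutive subunits of the core and the 19S regulator, of which 28, 29, 25 and 27 lay within 2-fold of their own median. *Psmb5* stood farthest above that median in FL, at 6.38, 5.72, 3.44 and 1.74 times its value.

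**Figure D1:**
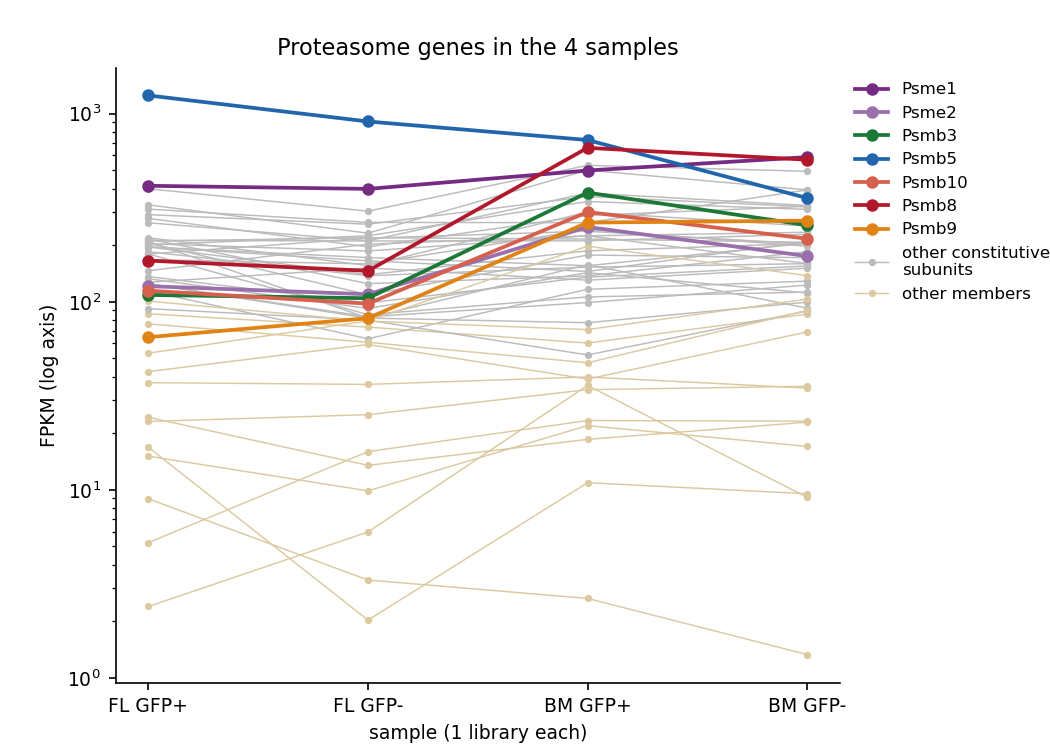
FPKM on a log axis (vertical) of the 49 proteasome genes in the 4 samples (horizontal), 1 point per library and 1 line per gene, with 7 genes coloured, the other constitutive subunits in grey and the remaining genes in tan. *Psmb8*, *Psmb9*, *Psmb10* and *Psmb3* lie higher in both BM samples than in both FL samples, and *Psmb5* lies between 1251 FPKM in FL GFP+ and 356 FPKM in BM GFP-.

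Values of *Psmb5* and *Psme2b* carry a limit of their own. *Psmb5* has the same value in every sample as *Mir686*, a microRNA gene of 109 bases that lies inside it, so the row is that of a joint locus, and how much of it belongs to *Psmb5* cannot be told from the files. *Psme2b*, a retrotransposed copy of *Psme2*, shares its values with 2 neighbouring genes, *9930111J21Rik1* and *9930111J21Rik2*, and is not a measure of *Psme2b* alone. Results for the catalytic subunits are accordingly given with and without *Psmb5*.

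The first comparison was of BM with FL for the immunoproteasome. All 3 of its catalytic subunits were more than 2-fold higher in BM than in FL in both fractions, while 2 of their 3 constitutive counterparts, *Psmb6* and *Psmb7*, differed by less than 1.5-fold. *Psmb8*, which replaces *Psmb5* and carries the chymotrypsin-like activity, measured 166, 146, 659 and 569 FPKM. Both BM samples lay well above both FL samples, by 3.98-fold in GFP+ cells and 3.90-fold in GFP- cells. *Psmb9*, which replaces *Psmb6*, measured 64.9, 81.8, 264 and 269.9 FPKM, 4.07-fold and 3.30-fold higher in BM. *Psmb10*, which replaces *Psmb7*, measured 115, 97.7, 300.1 and 217 FPKM, 2.62-fold and 2.22-fold higher. The lower BM sample exceeded the higher FL sample by 3.44-fold for *Psmb8*, 3.22-fold for *Psmb9* and 1.89-fold for *Psmb10*. With every sample scaled to the same FPKM total the BM minus FL differences in log2(FPKM + 1) were 1.36 and 1.53 for *Psmb8* and 1.38 and 1.29 for *Psmb9*, while *Psmb10*, at 0.75 and 0.71, no longer passed 2-fold.

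The 11S activator genes differed less. *Psme1*, the alpha subunit of the activator, measured 414, 398, 499 and 588 FPKM, 1.21-fold higher in BM for GFP+ cells and 1.48-fold for GFP- cells. With every sample scaled to the same FPKM total its difference in GFP+ cells turned to -0.36 on the log2(FPKM + 1) scale, so no direction is given for it there. *Psme2*, the beta subunit, measured 121, 109.7, 249.9 and 175 FPKM, 2.06-fold and 1.60-fold higher in BM. Already in FL *Psme1* was abundant: it stood 2.11 and 2.51 times above the constitutive median in FL GFP+ and FL GFP-, while *Psme2* stood at 0.618 and 0.690 of it and *Psmb9* at 0.331 and 0.515.

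The constitutive catalytic subunits differed the other way or little. *Psmb5*, read with *Mir686*, measured 1251, 909, 725 and 356 FPKM, and was 1.73-fold lower in BM GFP+ than in FL GFP+ and 2.55-fold lower in BM GFP- than in FL GFP-. *Psmb6*, with the caspase-like activity, measured 212, 210.5, 211 and 228 FPKM and was nearly level. *Psmb7*, with the trypsin-like activity, measured 204, 186, 224 and 159.8 FPKM, and its tissues overlapped.

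Ratios between subunits of 1 sample are not moved by how a sample is scaled. The summed FPKM of *Psmb8*, *Psmb9* and *Psmb10* was 0.207, 0.249, 1.05 and 1.42 times that of *Psmb5*, *Psmb6* and *Psmb7*. Immunoproteasome subunits made up 17.2% and 20% of the 6 catalytic genes in the FL samples, and 51.3% and 58.6% in the BM samples. The ratio was 5.09-fold higher in BM than in FL in GFP+ cells and 5.69-fold higher in GFP- cells. Part of this lay in the pair of *Psmb8* and *Psmb5*, without which the ratio was 0.432, 0.453, 1.29 and 1.25, a difference between tissues of 3.0-fold and 2.77-fold. Both BM samples remained above both FL samples.

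Each subunit pair showed the same order of tissues. *Psmb8* was at 0.132, 0.161, 0.909 and 1.60 times *Psmb5*. *Psmb9* was at 0.306, 0.389, 1.25 and 1.18 times *Psmb6*, and *Psmb10* was at 0.563, 0.525, 1.34 and 1.36 times *Psmb7*. Against *Psmb6*, which has no shared row, *Psmb8* was at 0.780, 0.694, 3.12 and 2.49. Within a tissue the ratios of the pairs without *Psmb5* differed by at most 1.27-fold between GFP+ and GFP- cells, and the tissues did not overlap for any pair.

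**Figure D2:**
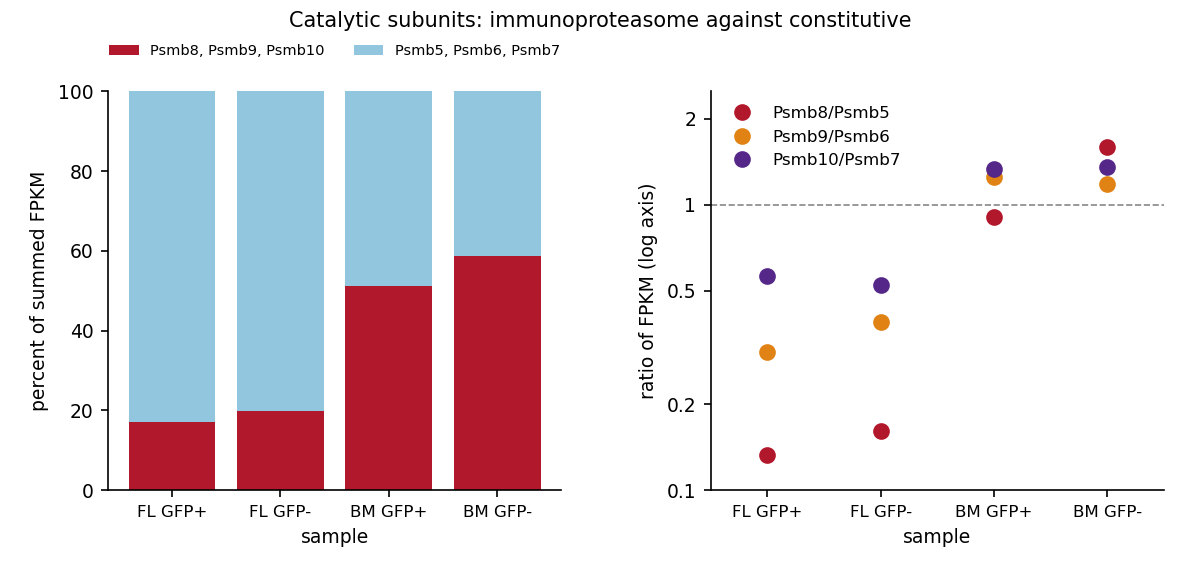
Left, percent of the summed FPKM of the 6 catalytic genes (vertical) taken by the immunoproteasome subunits and by the constitutive subunits in each of the 4 samples, 1 library each. Right, ratio of FPKM for the 3 pairs on a log axis, with a dashed line at 1; all FL points lie below 1 (0.132 to 0.563), and the BM points lie between 0.909 and 1.60.

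limma tested tissue over the 11707 genes that reached 1 FPKM in at least 2 samples, with the GFP fraction as a covariate. The fractions are the only repeat of the tissue contrast and leave 1 residual degree of freedom. Of all genes tested, 2.46% had an adjusted p under 0.05, and 3 of the 49 proteasome genes did. In limma with Benjamini-Hochberg adjustment these were *Psmb8* (BM minus FL 1.97, SE 0.29, adjusted p = 0.011), *Psmb9* (1.86, SE 0.32, adjusted p = 0.022) and *Psmb3* (1.54, SE 0.32, adjusted p = 0.048), on the log2(FPKM + 1) scale. *Psmb10* missed the limit at 1.26, SE 0.31, adjusted p = 0.086, and so did *Psmb5* at -1.07, SE 0.30, adjusted p = 0.125. For *Psme2* and *Psme1* the limma estimates were 0.85 (SE 0.32, adjusted p = 0.217) and 0.41 (SE 0.29, adjusted p = 0.521).

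These limma calls depended on the settings of the fit. With all 4 libraries but no GFP covariate, limma called 2 of the 49. With BM GFP- alone against both FL libraries and no covariate, an alternative chosen after the data were seen that changes the model as well as leaving out BM GFP+, limma gave no adjusted p under 0.05 for any gene, although 5 of the 49 had an unadjusted p under 0.05. The limma estimate for *Psmb8* was then 1.87 (SE 0.22, adjusted p = 0.312). Without the intensity trend the limma count was 0 of 49 as well, with 3 at an unadjusted p under 0.05, against 8 in the fit as reported. Without the BM GFP+ library, GFP- cells alone gave 3.90-fold for *Psmb8*, 3.30-fold for *Psmb9* and 2.22-fold for *Psmb10*.

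Sequences upstream of 3 catalytic genes are shown: *Psmb8* and *Psmb9*, which differed most among those higher in BM, and *Psmb5*, which was lower. They come from RefSeq on GRCm38.p6 and run 5′ to 3′ toward the gene's start, and capitals mark a match to 1 of 4 motifs searched on both strands: GAAANNGAAA (the interferon-stimulated response element), TTCNNNGAA (the gamma-activated site), TGACNNNGC (part of the antioxidant response element, also read by NFE2L1, a factor that drives proteasome genes) and CCAAT. For *Psmb8* the 250 bases are chr17:34197945-34198194 on the + strand, with a TTCNNNGAA match. For *Psmb9* they are the 225 bases chr17:34187331-34187555 on the - strand, the whole stretch between its start and that of *Tap1*, the peptide transporter gene that runs the other way, with a CCAAT match read as its complement. For *Psmb5* the 250 bases are chr14:54617996-54618245 on the - strand, with a TGACNNNGC match. The 250 bases upstream of *Psmb10* and of *Psme1* were searched too. They held 0 matches and are not shown.
Psmb8: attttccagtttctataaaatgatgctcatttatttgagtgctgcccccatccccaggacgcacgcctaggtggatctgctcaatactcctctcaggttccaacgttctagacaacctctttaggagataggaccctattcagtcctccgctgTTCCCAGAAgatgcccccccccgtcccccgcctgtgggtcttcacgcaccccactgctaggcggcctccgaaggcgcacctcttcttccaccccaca
Psmb9: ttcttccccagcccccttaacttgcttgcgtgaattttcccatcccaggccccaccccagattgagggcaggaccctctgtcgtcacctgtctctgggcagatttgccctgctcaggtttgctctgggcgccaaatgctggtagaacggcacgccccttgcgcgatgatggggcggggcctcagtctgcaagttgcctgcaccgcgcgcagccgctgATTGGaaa
Psmb5: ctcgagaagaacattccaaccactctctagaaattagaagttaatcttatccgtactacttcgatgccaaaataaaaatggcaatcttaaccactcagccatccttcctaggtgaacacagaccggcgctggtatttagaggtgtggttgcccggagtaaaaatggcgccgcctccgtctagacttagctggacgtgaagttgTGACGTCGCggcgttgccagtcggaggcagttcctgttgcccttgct

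Promoter windows of 300 bases, 250 before and 50 after the start, were found for 41 of the 49 genes. A gene was counted where any of its windows matched (44 windows in all), while shares over all promoters are per window. GAAANNGAAA occurred in 5 of the 41 (*Psmb3*, *Psmd4*, *Psmd9*, *Psme1* and *Psmg4*) and in 3.44% of all 32851 promoters of that length. TTCNNNGAA occurred in 3 (*Psmb8*, *Psmd2* and *Psmg1*), against 8.30% of all promoters. TGACNNNGC occurred in 6 (*Psmb5*, *Psmb6*, *Psmc6*, *Psmd12*, *Psmd9* and *Psme4*), against 12.4%, and CCAAT in 14, against 37.4%. A match describes the letters and not a bound site. The genes with a given motif were not those of 1 expression pattern: GAAANNGAAA was found in the windows of *Psmb3*, which differed between tissues, and of *Psmd4*, which measured 196, 139, 187 and 204 FPKM.

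Among the remaining 20S subunits, the tissue difference was small apart from *Psmb3*. The 7 alpha-ring genes, which form the outer gate of the core, measured between 145 FPKM (*Psma3* in BM GFP+) and 531 FPKM (*Psma7* in BM GFP+), and all 7 stayed within 2-fold in every comparison. *Psmb3*, a structural beta subunit with no immune counterpart, measured 109, 104, 381 and 255 FPKM, 3.5-fold and 2.45-fold higher in BM. Its lower BM sample exceeded its higher FL sample by 2.35-fold. With equal FPKM totals its differences in log2(FPKM + 1) were 1.17 and 0.86, the second no longer past 2-fold. The other structural beta genes, *Psmb1*, *Psmb2* and *Psmb4*, were higher in both BM samples than in both FL samples, but by less than 2-fold, and in GFP+ cells 2 of the 4 structural genes were no longer above 0 with equal FPKM totals. The share of all expressed genes that were higher in both BM samples than in both FL samples was not counted, so such an order is only a description. Over the 11 alpha and structural beta genes the median BM minus FL difference was 0.45 in GFP+ cells and 0.62 in GFP- cells, and with equal FPKM totals the first turned to -0.17.

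Over the 17 genes of the 19S regulator the median BM minus FL difference was -0.21 in GFP+ cells, with 6 genes above 0, and 0.28 in GFP- cells, with 14 above 0. With equal FPKM totals these became -0.84, with 0 above 0, and -0.15, with 6 above 0. Of all 13609 expressed genes, 6908 in GFP+ cells and 6988 in GFP- cells were above 0 as deposited. The 6 ATPases, *Psmc1* to *Psmc6*, measured between 83.2 FPKM and 237 FPKM and stayed within 2-fold in all comparisons. *Psmc5* was the most even of them, from 207 to 219 FPKM. *Psmd1*, the large scaffold of the base, measured 91.9, 79.9, 52.1 and 89.2 FPKM, its lowest value being in BM GFP+. *Psmd6*, a lid subunit, measured 114, 63.6, 117 and 129 FPKM and passed 2-fold between FL GFP- and BM GFP-.

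Of the 7 assembly chaperones, 1 passed 2-fold between tissues, in GFP+ cells. It was *Psmg4*, a chaperone of alpha-ring assembly, at 53.3, 79.1, 197.5 and 137.8 FPKM, and its lower BM sample exceeded its higher FL sample by 1.74-fold. The other core assembly chaperones were lowest in BM GFP+ instead. *Psmg1* measured 76.3, 60.9, 47.4 and 89.9 FPKM, *Psmg3* measured 42.5, 59.3, 38.8 and 69.1 FPKM, and *Psmg2* was at 71.1 FPKM in BM GFP+. *Psme3*, the nuclear PA28-gamma activator, measured 5.24, 16.0, 23.4 and 23.2 FPKM. *Psme4*, the PA200 activator, measured 8.96, 3.31, 2.65 and 1.33 FPKM and was the only gene of the set more than 2-fold higher in FL than in BM in both fractions. *Psmf1*, an inhibitor of the core, lay between 9.88 and 22.0 FPKM.

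*Psma8*, a testis-enriched alpha subunit, measured 16.8, 2.03, 10.9 and 9.53 FPKM, the FL GFP- sample being the low one. The 2 remaining genes only share the prefix. *Psmc3ip*, a cofactor of meiotic recombination and no proteasome subunit, measured 23.1, 25.1, 34.1 and 35.5 FPKM. The *Psme2b* row measured 2.40, 5.97, 35.9 and 9.13 FPKM. The assembly chaperones of the 19S regulator, *Psmd5*, *Psmd9* and *Psmd10*, ranged from 13.5 to 86.4 FPKM and stayed within 2-fold in each comparison.

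**Figure D3:**
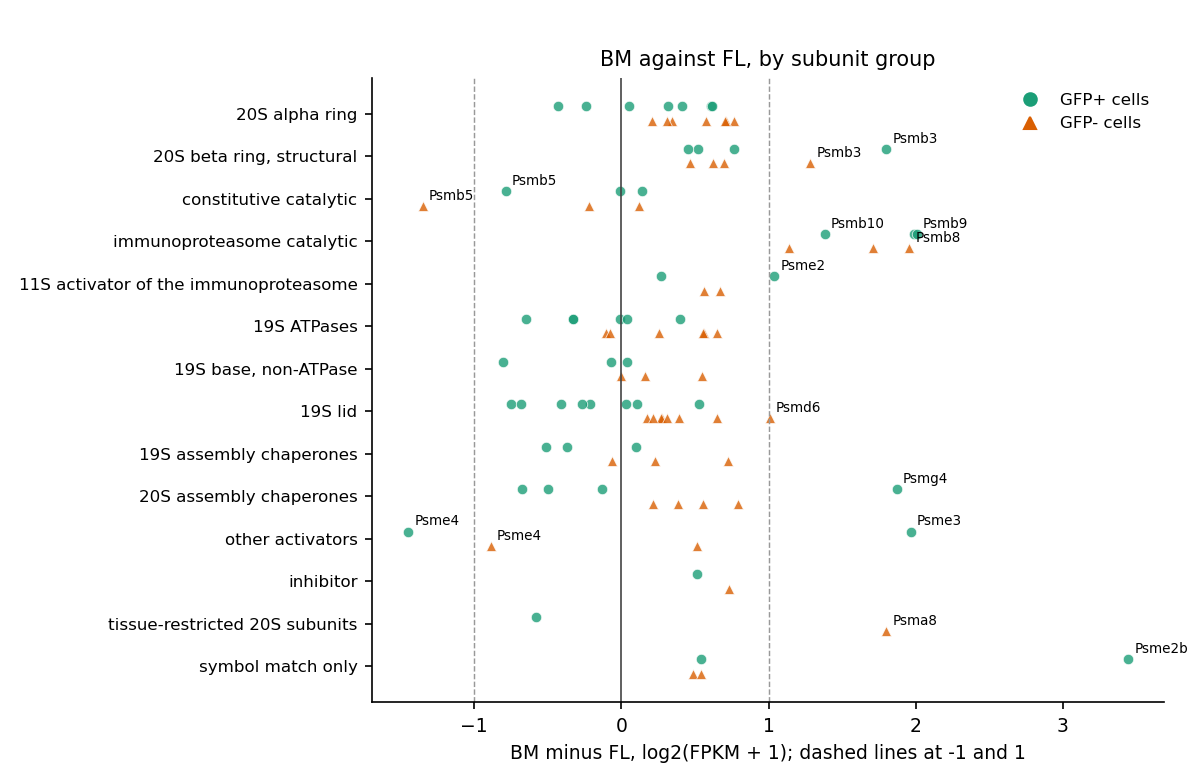
BM minus FL difference in log2(FPKM + 1) (horizontal) of the 49 proteasome genes by subunit group (vertical), for GFP+ cells (circles) and GFP- cells (triangles), 1 library per sample and dashed lines at -1 and 1. The immunoproteasome catalytic genes lie between 1.14 and 2.01, and of the constitutive genes *Psmb3*, *Psmb5* and *Psmd6* lie past a dashed line in at least 1 fraction.

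Counts past 2-fold put the set beside all expressed genes. In GFP+ cells 8 of the 49 were more than 2-fold higher in BM, where 32.1% of all genes were, and 1 was lower, where 24.1% were. In GFP- cells 6 were higher, where 20% of all genes were, and 2 were lower, where 19.2% were. In both fractions together, 4 of 49 (*Psmb8*, *Psmb9*, *Psmb10* and *Psmb3*) were higher in BM, where 12.2% of all genes were, and 1 was higher in FL, where 7.86% were. Fewer of the set than of all genes were thus past 2-fold in every one of these counts. Of the 5 immunoproteasome genes 4 were higher in GFP+ cells and 3 in GFP- cells, and of the 31 constitutive genes 1 and 2 were. The median difference was 1.38 and 1.14 for the 5 immunoproteasome genes, 0.03 and 0.34 for the 31 constitutive genes, and 0.03 in each fraction for all expressed genes. With equal FPKM totals the constitutive medians turned to -0.59 and -0.08, while those of the immunoproteasome were 0.75 and 0.71.

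Genes that work with the immunoproteasome were compared from lists of the same pathway. Of 10 MHC class I and peptide-loading genes, 6 were more than 2-fold higher and 1 lower in BM in GFP+ cells, and 5 were higher and 0 lower in GFP- cells. *H2-K1*, *H2-D1*, *B2m* and *Tap1* were more than 2-fold higher in both BM samples than in both FL samples. *B2m*, the light chain of the class I molecule, measured 781, 885, 4033 and 2856 FPKM, and *Tap1* measured 19.5, 32.5, 131 and 86.4 FPKM. *Psmb9* stood at 3.33, 2.51, 2.02 and 3.12 times *Tap1*. This ratio varied less than either gene did, which can hold for any 2 genes that are both higher in BM. *Erap1*, which trims peptides in the endoplasmic reticulum, went the other way, at 62.1, 42.7, 25.7 and 32.3 FPKM.

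Of 9 regulators of interferon and class I genes, 6 were more than 2-fold higher in BM in GFP+ cells and 3 in GFP- cells, with 0 lower. All expressed genes gave 32.1% and 20% in these directions. *Irf8*, a factor of myeloid and B cells, measured 15.1, 4.79, 320.0 and 132 FPKM. *Nlrc5*, a transactivator of class I genes, was low, at 0.0880, 0.409, 3.25 and 3.65 FPKM.

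Genes around the constitutive proteasome differed less. Of 8 measured partners outside the prefixes, 1 was more than 2-fold higher (*Shfm1*, a small lid subunit) and 1 lower (*Uchl5*, a deubiquitinase of the 19S regulator) in BM in GFP+ cells, and 1 was lower (*AI314180*, the Ecm29 gene) in GFP- cells. *Pomp*, the chaperone of core maturation, measured 228, 172, 203 and 295 FPKM. Of 12 ubiquitin and shuttle genes, 3 were higher and 1 lower in GFP+ cells, and 1 was higher in GFP- cells. *Nfe2l1*, whose product drives proteasome genes when the proteasome is inhibited, measured 27, 12.3, 23.6 and 16.6 FPKM. *Ddi2*, the protease that activates that product, was listed at 0 in FL GFP+ and measured 7.98, 2.15 and 9.64 FPKM in the other 3 samples.

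Markers of other blood cell types, mature or not, were higher in BM as well. By the looser rule of more than 2-fold within each fraction, 12.2% of all expressed genes were higher in BM. All 9 granulocyte markers were more than 2-fold higher in both BM samples than in both FL samples, with a summed level of 587 and 310.5 FPKM in FL and 62271 and 17455 FPKM in BM. All 7 B cell markers were, with sums of 96.3 and 43.5 FPKM in FL and 3386 and 895 FPKM in BM, and *Pax5* and *Ebf1* were listed at 0 in both FL samples. The same held for 7 of 9 macrophage and dendritic cell markers (28.6, 40.5, 14254 and 4282 FPKM), 5 of 6 erythroid markers (1170, 1089, 25424 and 3461 FPKM) and 5 of 7 T and NK cell markers (8.91, 8.90, 138 and 37.0 FPKM). In the macrophage and dendritic cell list the exceptions were *Emr1* and *Cd68*. *Emr1* measured 12.1, 2.37, 14.2 and 4.90 FPKM and *Cd68* 0.157, 17.8, 96.5 and 34.3 FPKM. Most of the BM sums of that list came from *Cd74*, *H2-Ab1* and *H2-Aa*. These were at 8726, 2580 and 2720.5 FPKM in BM GFP+ and at 2638, 764 and 794 FPKM in BM GFP-. *Cd3e* and *Cd3g* were listed at 0 in FL. Hepatocyte markers were higher in FL GFP+, with sums of 361, 27.5, 13.3 and 6.87 FPKM.

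Between the BM samples these sums and the immunoproteasome differed by unlike amounts. Granulocyte, B cell, T and NK cell, and macrophage and dendritic cell sums were 3.57-fold, 3.78-fold, 3.72-fold and 3.33-fold higher in BM GFP+ than in BM GFP-, and the erythroid sum 7.35-fold. Within the granulocyte list the genes differed unevenly. *Elane*, *Mpo*, *Prtn3* and *Ctsg* were at 1.31, 1.22, 1.29 and 0.943 times their BM GFP- level. *Ltf*, *Ngp*, *Camp*, *S100a8* and *S100a9* were 3.96-fold to 8.97-fold higher in BM GFP+. The sum of *Psmb8*, *Psmb9* and *Psmb10* was 1.16-fold higher (345, 326, 1222 and 1056 FPKM). The part of other blood cell types in the tissue difference of the immunoproteasome was not tested. Their markers and the immunoproteasome both differ between BM and FL.

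**Figure D4:**
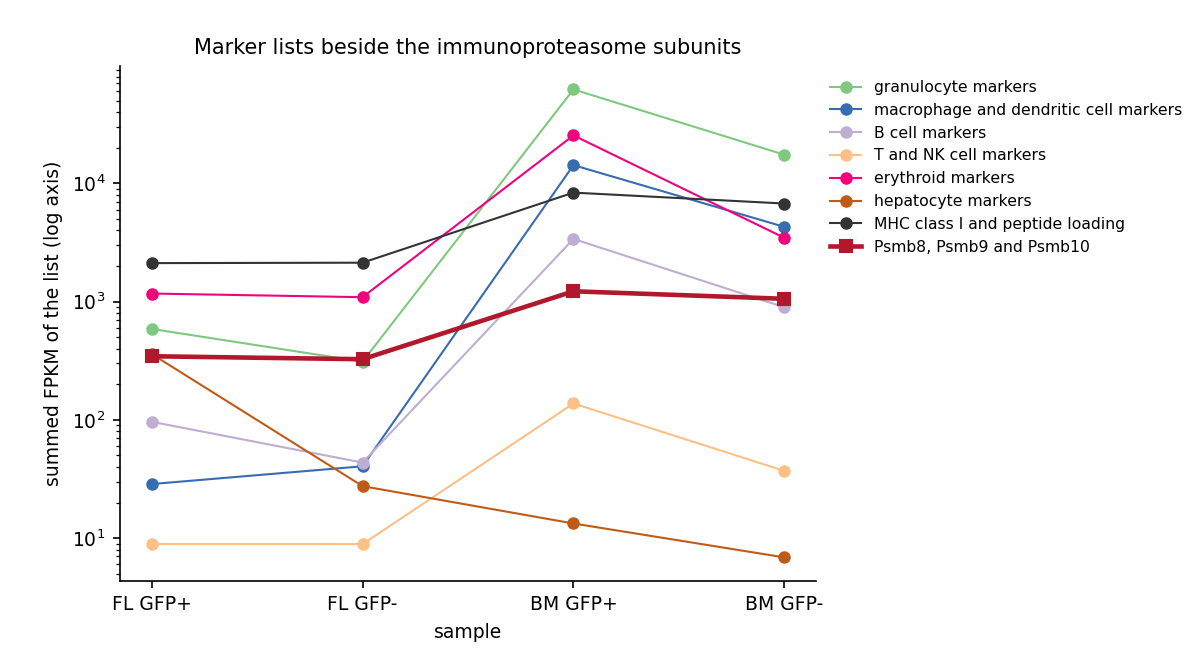
Summed FPKM on a log axis (vertical) of 6 marker lists, of the MHC class I and peptide-loading genes and of *Psmb8*, *Psmb9* and *Psmb10* (squares) in the 4 samples (horizontal), 1 library each. From BM GFP- to BM GFP+ the marker sums of blood cells differ by 3.33-fold to 7.35-fold, and the proteasome sum by 1.16-fold. Single granulocyte markers in their sum differ by 0.943-fold (*Ctsg*) to 8.97-fold (*Camp*).

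The second comparison was of BMP-activated with non-BMP-activated cells, the contrast for which the reporter was used. Immunoproteasome genes differed little by GFP. All 5 stayed within 2-fold in both tissues, with median GFP+ minus GFP- differences of 0.14 in FL and 0.21 in BM, which turned to -0.11 and -0.25 with equal FPKM totals. The catalytic ratio was 0.207 in FL GFP+ against 0.249 in FL GFP-, and 1.05 in BM GFP+ against 1.42 in BM GFP-. Without *Psmb8* and *Psmb5* it was 0.432 against 0.453 and 1.29 against 1.25, so that the lower ratio of BM GFP+ was not seen without that pair.

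By fold, the largest GFP differences in FL were those of 3 genes of low level. In FL GFP+ *Psma8* was 8.29-fold higher, *Psme3* 3.05-fold lower and *Psme4* 2.70-fold higher. Among the groups of constitutive subunits, the 19S lid had the largest median difference. *Psmd3*, a lid subunit, was 2.55-fold higher in FL GFP+ than in FL GFP- and 1.70-fold higher in BM GFP+ than in BM GFP- (209, 81.9, 157 and 92.5 FPKM). *Psmd11*, a lid subunit at 179, 85.5, 106 and 113 FPKM, was 2.10-fold higher in FL GFP+. All 8 lid genes were higher in FL GFP+ than in FL GFP-, with a median difference of 0.72, or 7 of 8 and 0.46 with equal FPKM totals. In BM the lid median was -0.01, with 4 of 8 genes above 0, or -0.46 and 1 of 8 with equal FPKM totals. The sum of the hepatocyte markers was 13.1-fold higher in FL GFP+ than in FL GFP-, and its part in the lid difference was not tested. Of the 31 constitutive genes 26 were higher in FL GFP+ (median 0.39), which became 17 with equal FPKM totals (0.14), and 15 were higher in BM GFP+ (median -0.06), which became 4 (-0.51). Of all 13609 expressed genes, 6474 were higher in FL GFP+ (median 0) and 6950 in BM GFP+ (median 0.03), as deposited.

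Counts past 2-fold were below those of all genes in each direction. In FL, 4 of 49 (*Psma8*, *Psmd3*, *Psmd11* and *Psme4*) were more than 2-fold higher in GFP+ cells, where 16.6% of all genes were, and 2 (*Psme3* and *Psme2b*) were lower, where 28.0% were. In BM, 2 (*Psmb5*, 2.04-fold, and *Psme2b*) were higher, where 19.7% of all genes were, and 0 were lower, where 22.9% were. No proteasome gene passed 2-fold the same way in FL and BM. GFP+ cells had 0 higher, where 3.26% of all genes were, and 0 lower, where 8.98% were.

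limma, with tissue as the covariate, called 0 of the 49 for GFP, with 0.111% of all genes called, and 2 of the 49 had an unadjusted p under 0.05. Every other limma setting tried also gave 0 of 49. The estimates were 1.05 (SE 0.34, limma adjusted p = 0.735) for *Psmd3* and 0.74 (SE 0.30, limma adjusted p = 0.780) for *Psmb5*, both higher in GFP+ cells of both tissues. For *Psmb8* the limma estimate was 0.19 with an SE of 0.29.

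**Figure D5:**
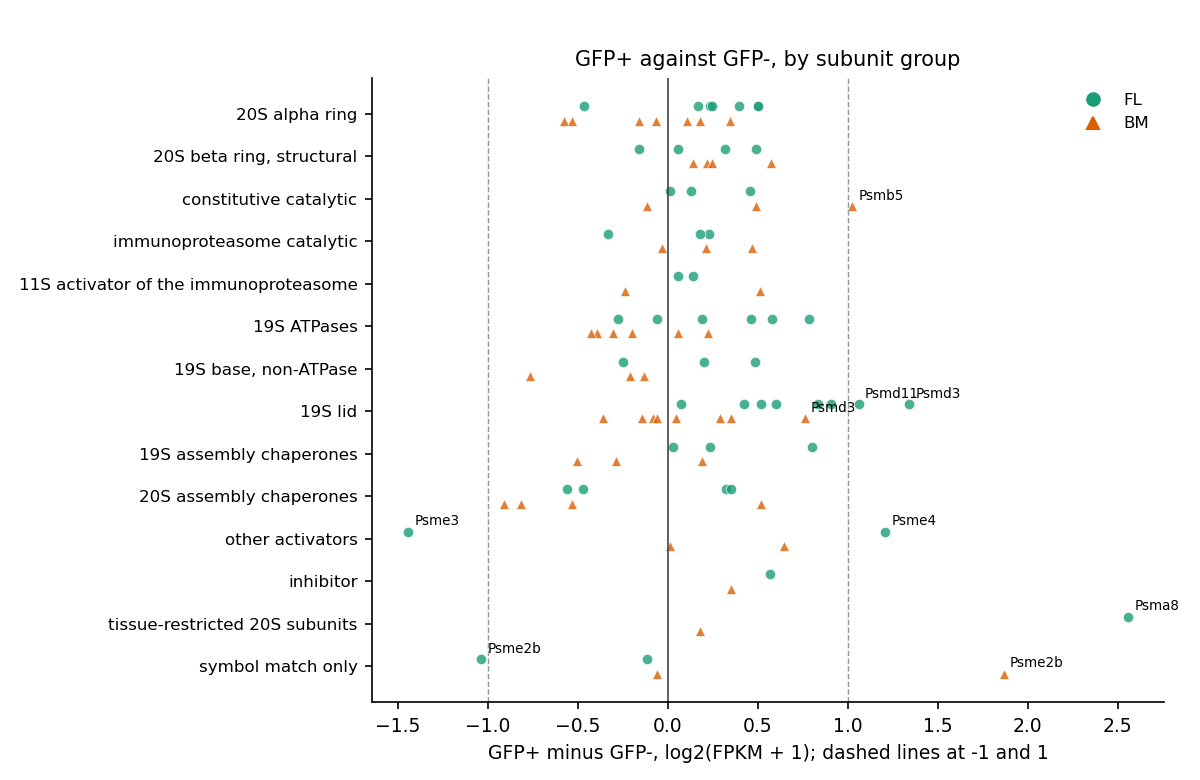
GFP+ minus GFP- difference in log2(FPKM + 1) (horizontal) of the 49 proteasome genes by subunit group (vertical), for FL (circles) and BM (triangles), 1 library per sample and dashed lines at -1 and 1. All 8 lid genes lie above 0 in FL, and the 5 immunoproteasome genes lie between -0.33 and 0.51 in both tissues.

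Transcript length went with the differences among the constitutive genes in some comparisons. Across the 31 genes, which share their libraries and are not replicates, the correlation of log2 transcript length with the difference was r = 0.28 for GFP in FL and -0.43 for GFP in BM. It was -0.50 for tissue in GFP+ cells and -0.002 for tissue in GFP- cells. Over 11783 expressed protein-coding genes it was -0.02, 0.03, -0.16 and -0.31 in these 4 comparisons. The long lid genes *Psmd3* and *Psmd11* have transcripts of 2148 and 2848 bases and *Psmb3* one of 766 bases. The part of length in these differences was not tested.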

How the data were processed

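RNA of sorted LSK-SLAM cells was made into SMARTer libraries and sequenced on a HiSeq2000, 1 library per group. Deposited values are in FPKM. The authors computed the FPKM with Bowtie, TopHat and Cufflinks (2.2.1 in the submitters' processing notes), corrected for fragment bias and multiply mapped reads with Cuffquant and normalized across the 4 samples with Cuffnorm by its geometric method. The processing notes name mm10 and the methods of the study an earlier build, and the files hold no coordinates. The files hold no read counts or errors, so the precision of a single FPKM was not estimated, and reads shared with pseudogenes (those of *Psmb5*, *Psmb6*, *Psmb7* and *Psma5*, for example) can move these genes.

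Symbols were matched by prefix and a level of 1 FPKM in at least 1 sample. Differences are on log2(FPKM + 1), which understates those of low genes, and folds are ratios of FPKM as deposited. The 2-fold threshold, which the study set for GFP in both tissues jointly, was applied here to each comparison and, with 1 library per group, is a description without a test. limma 3.58.1 in R 4.3.3 (lmFit, eBayes with trend, Benjamini-Hochberg adjustment over 11707 genes) fitted tissue and GFP together, and was tested on simulated data. The fit has 1 residual degree of freedom per gene, which holds how far the GFP difference is unlike in the 2 tissues. The limma p-values rest on that residual and on a variance trend pooled over all genes. They do not measure a spread between replicates, of which there are none. Other steps used Python 3.11.15, numpy 2.4.6, pandas 2.3.3 and matplotlib 3.10.9. Alternatives were other pseudocounts, filters, thresholds and scalings, other forms of the catalytic ratio and other limma settings. Transcript lengths are from an NCBIM37 annotation and upstream sequences from RefSeq on GRCm38.p6.

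Genes named with all values are the immunoproteasome and constitutive catalytic genes and, in each of the 4 comparisons, the 3 with the largest difference in each direction; *Psmb3*, *Psmd6*, *Psmd11*, *Psmc5*, *Psmd4* and *Psmc3ip* were named after their values were seen. One gene of the list of interferon and class I regulators was left out of its counts and is not reported here. The genes and lists were chosen with earlier results of these data known.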

Additional observations from a re-analysis of the deposited data

Results flagged for a closer look

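In 2 genes the effect of GFP or of tissue ran in opposite directions in its 2 settings by more than 1.5-fold each way. In 4 subunit groups the median GFP difference was opposite in FL and BM by more than 0.1 each way on the log2(FPKM + 1) scale. Smaller opposite differences are not listed, such as the GFP difference of *Psmc4* (0.78 in FL and -0.42 in BM). With 1 library per group none of these differences was tested. The GFP difference of the *Psme2b* row, which 2 neighbouring genes share, was negative in FL and positive in BM, and these differed by 2.90 on the log2(FPKM + 1) scale. The BM minus FL difference of *Psma8* was negative in GFP+ cells and positive in GFP- cells, and these differed by 2.38, with 2.03 FPKM in FL GFP- setting the second.

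Group medians of the GFP difference were positive in FL and negative in BM for the 19S ATPases (BM minus FL -0.58), the non-ATPase genes of the 19S base (-0.41) and the 19S assembly chaperones (-0.52). For *Psme3* and *Psme4* together the order was the reverse, at 0.45. With equal FPKM totals the FL medians of the base genes and of the 19S chaperones turned to -0.05 and -0.02, and *Psme3* and *Psme4* together had medians of -0.34 in FL and -0.05 in BM. Of the groups listed, only the 19S ATPases kept opposite signs (0.07 and -0.70). The 19S lid, not listed because its BM median was -0.01 as deposited, had medians of 0.46 in FL and -0.46 in BM with equal FPKM totals. The BM GFP+ library, which stood apart, enters each of these contrasts.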

How the results depend on the processing

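The catalytic ratio kept its direction between tissues under every form tried. On the log2 scale it was 2.35 in GFP+ and 2.51 in GFP- cells, 1.59 and 1.47 without *Psmb8* and *Psmb5*, and 1.45 and 1.10 against the 20S alpha and structural beta genes. For GFP in BM it was -0.43 as reported, and turned to 0.12 against those genes and to 0.047 without *Psmb8* and *Psmb5*.

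Scaling to equal FPKM totals moved the median of all genes by -0.14 (GFP in FL), -0.31 (GFP in BM), -0.26 (tissue, GFP+) and -0.34 (tissue, GFP-). The median over the proteasome genes then turned from 0.23 to -0.020, from 0.01 to -0.42 and from 0.04 to -0.59 in the first 3, and equal upper quartiles turned it to -0.088 for GFP in BM and to -0.0070 for tissue in GFP+ cells. The cause was not tested. Genes past 2-fold became 5 (1 higher, 4 lower) in place of 2 for GFP in BM, 19 (6 higher, 13 lower) in place of 9 for tissue in GFP+ cells and 5 (3 higher, 2 lower) in place of 8 in GFP- cells. Equal upper quartiles gave 1 higher and 1 lower for GFP in BM. Thresholds of 1.5-fold and 4-fold gave 12 and 1 genes for GFP in FL, 7 and 0 for GFP in BM, 19 and 3 for tissue in GFP+ cells and 20 and 1 in GFP- cells.

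For tissue, limma called 3 of 49 as reported, 0 without the trend, 0 with a pseudocount of 0.1, 1 with equal totals, and 0 without BM GFP+ replicate 1 and the covariate, where 1 BM library is assumed to vary like the FL libraries. The smallest limma adjusted p of a proteasome gene was between 0.023 and 0.312 over all alternatives tried. The fit as reported already takes the other factor as a block, and without it limma called 2 of 49 for tissue and 0 for GFP. The files hold no counts per gene, so no limit from depth was computed.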
